A study of Mus musculus with 4 samples.

Results

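Astrocyte nuclei of the mouse hippocampus were taken as barcodes that carry transcripts of 8 astrocyte genes in excess of genes of other cells. A barcode was kept when it held at least 500 unique molecular identifiers (UMIs, each of which stands for 1 captured RNA molecule) and at most 5% of them came from mitochondrial genes. It became a member when Slc1a3, Gpc5, Mertk, Nwd1, Prex2, Rgs20, Gm6145 and Wdr17 together gave at least 4 UMIs from at least 3 of these genes. That sum also had to exceed the summed UMIs of 9 genes of oligodendrocytes and neurons (Prr5l, St18, Mog, Prox1, Glis3, Man1a, Galntl6, Grik4 and Trps1). The rule found 2348 members among 58051 barcodes kept. Members were thus chosen by the measured UMI counts of these genes, so the levels of the 8 genes and all differences between members and the other barcodes are given as descriptions with no test.

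Trained mice had been through active place avoidance, in which a mouse on a rotating arena keeps out of a sector that gives a mild foot shock, and untrained mice were their controls. All groups carried the ArcCreERT2::eYFPflx genotype, a tamoxifen-inducible Cre under the Arc promoter with a floxed eYFP reporter, and hippocampi were taken 3 days after a retention test. The Cre is made where the activity-dependent gene Arc is expressed, so the tag is aimed at active neurons, and it was not used to choose nuclei here. The design gives 2 mice in each group and there were 2 libraries in each, so each library was taken as 1 mouse. The p-values cover only these 4 samples, and those of single genes rest largely on a spread shared across genes. The labels give no age of the mice.

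Astrocytes are the glial cells whose fine processes surround synapses. They take up glutamate through the transporters Slc1a3 (GLAST) and Slc1a2 (GLT-1) and turn it into glutamine with Glul, glutamine synthetase. They buffer potassium, share ions through gap junctions, store glycogen from which lactate can be passed to neurons, and supply lipids in Apoe particles. In the hippocampus, glycogen breakdown in astrocytes and the passage of lactate to neurons are known for a part in lasting avoidance memory in rodents. Nuclear RNA reports mainly transcripts that are being made, so intron-rich genes are seen better than genes whose mature messages lie in the cytoplasm or in fine processes.

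The promoters of 2 genes that define the nuclei and of the gene that fell with training are shown, each from 250 bases before to 50 after the annotated start, in RefSeq sequence of build GRCm38.p6. They were searched on both strands for TTGGC, the core letters that nuclear factor I proteins (Nfia, Nfib and Nfix, regulators of astrocyte formation) are known to bind, and matches are in capitals. Gpc5 lies at chr14:115091965-115092264 on the plus strand, Slc1a3 at chr15:8710758-8711057 on the minus strand and Rnf121 at chr7:102065116-102065415 on the minus strand.
Gpc5: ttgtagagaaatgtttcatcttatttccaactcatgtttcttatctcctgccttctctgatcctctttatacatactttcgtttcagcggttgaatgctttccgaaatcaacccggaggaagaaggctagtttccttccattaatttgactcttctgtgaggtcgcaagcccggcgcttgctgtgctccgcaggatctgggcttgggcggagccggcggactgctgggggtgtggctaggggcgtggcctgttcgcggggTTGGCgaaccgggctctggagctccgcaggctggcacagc
Slc1a3: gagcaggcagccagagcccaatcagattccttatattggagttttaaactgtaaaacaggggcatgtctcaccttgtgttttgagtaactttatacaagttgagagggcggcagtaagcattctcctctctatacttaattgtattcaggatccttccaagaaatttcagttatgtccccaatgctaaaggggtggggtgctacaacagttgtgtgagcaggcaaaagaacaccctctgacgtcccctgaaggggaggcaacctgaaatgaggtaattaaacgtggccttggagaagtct
Rnf121: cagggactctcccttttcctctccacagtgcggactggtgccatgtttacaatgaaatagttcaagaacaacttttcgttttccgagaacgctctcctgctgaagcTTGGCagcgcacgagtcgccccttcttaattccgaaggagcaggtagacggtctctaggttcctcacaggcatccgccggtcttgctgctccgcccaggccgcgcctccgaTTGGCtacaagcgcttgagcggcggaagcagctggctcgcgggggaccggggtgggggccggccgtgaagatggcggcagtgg
The letters occurred 1 time in the Gpc5 window, 2 times in the Rnf121 window and not in the Slc1a3 window. Of the 8 genes of the gate, 6 were matched to RefSeq, with 9 promoter windows in all because Wdr17 has several starts. The letters were in 6 of these 9 windows (66.7%), against 15344 of 32851 windows of the same length over all genes (46.7%). Several of the windows with the letters were starts of the single gene Wdr17, and Slc1a3 and Mertk had none, so the windows are not independent genes. A match is a description of the letters and not a site of binding.

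Members numbered 134 and 572 in Trained replicates 1 and 2, against 950 and 692 in Untrained replicates 1 and 2. In the same libraries 10193 and 14891 barcodes were kept in trained mice, against 19810 and 13157 in untrained mice. Library totals were 23155826 and 26369095 UMIs in trained mice, against 39749125 and 24636056 UMIs in untrained mice. A member nucleus held a median of 688 and 789 UMIs in trained mice, against 716 and 737.5 UMIs in untrained mice. The summed counts that carry every comparison of genes were 104114 and 534742 UMIs in trained mice, against 899060 and 699752 UMIs in untrained mice. The most frequent UMI total of a barcode, taken as a measure of free RNA, came to 26.9% and 26.0% of the median member in trained mice, against 42.6% and 38.6% in untrained mice. These totals were 185 and 205 UMIs in trained mice, against 305 and 285 UMIs in untrained mice. The deposited barcodes themselves began at 101 and 174 UMIs in trained mice, against 201 and 251 UMIs in untrained mice. The part of these unlike minimums in the measure was not tested. Between 29 and 87 kept barcodes were shared by any pair of libraries, and none of the members was shared.

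Trained replicate 1 stood apart before any test. Its members had a median gate sum of 5 UMIs, against 7 in Trained replicate 2 and 7 and 8 in Untrained replicates 1 and 2. Members exactly at the minimum of 4 made up 37.3% and 15.2% of members in Trained replicates 1 and 2, against 14.6% and 9.68% in Untrained replicates 1 and 2. Only 18 of its members reached 1000 UMIs, against 194 in Trained replicate 2 and 284 and 228 in Untrained replicates 1 and 2. The share of members, the genes called or ranked and the gene lists that leaned one way are therefore also given without it.

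Gpc5, a glypican of the cell surface, was the most abundant gate gene with 3054 and 3278 CPM (a gene's counts relative to all counts of the same barcodes) in members of trained mice, against 3378 and 3484 CPM in untrained mice. The other barcodes kept held 343 and 330 CPM of it in trained mice, against 277 and 302 CPM in untrained mice. Wdr17, a WD-repeat gene, followed with 1306 and 1532 CPM in members of trained mice, against 1606 and 1736 CPM in untrained mice. Slc1a3 held 816 and 984 CPM in members of trained mice, against 858 and 1002 CPM in untrained mice. Members of the 4 libraries were thus close to each other in these 3 genes, with Trained replicate 1 lowest in each.

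Mertk, a receptor with which astrocytes engulf synaptic material, was the gate gene in which 1 library differed most. It held 375 and 640 CPM in members of trained mice, against 645 and 613 CPM in untrained mice, so that Trained replicate 1 alone was low. A Mertk UMI was found in 26.1% and 45.6% of members of trained mice, against 44.7% and 45.2% of members of untrained mice. A Gpc5 UMI was found in 93.3% and 94.1% of members of trained mice, against 93.9% and 95.1% of members of untrained mice. Prex2, an exchange factor for Rac, stayed between 625 and 715 CPM in all 4 libraries, and Rgs20, a regulator of G-protein signalling, between 325 and 490 CPM. Nwd1 lay between 221 and 296 CPM and the predicted gene Gm6145 between 252 and 317 CPM.

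**Figure D1:**
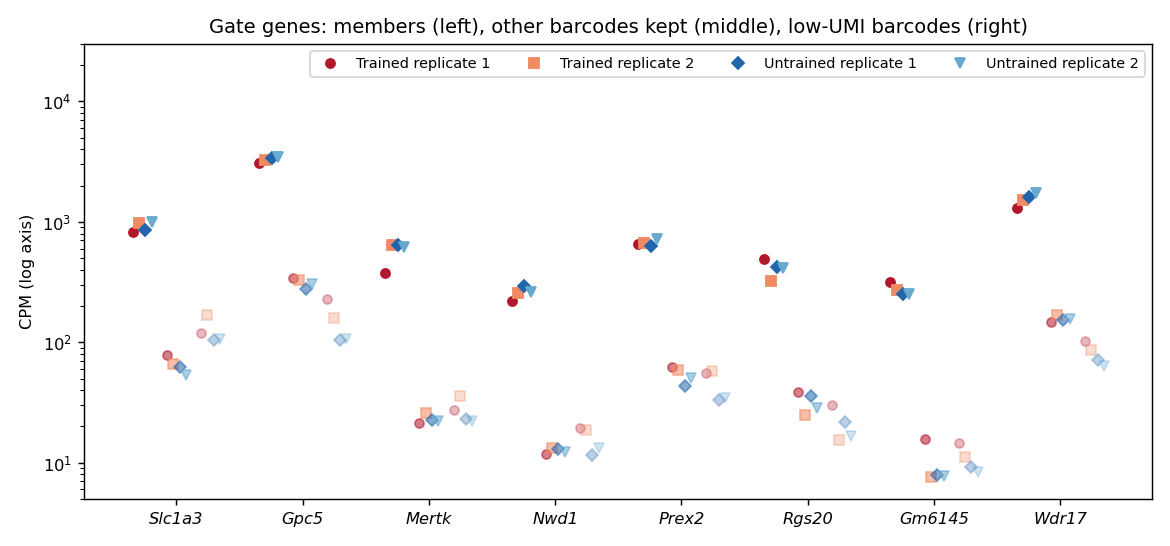
The 8 gate genes in each library, in CPM on a log axis, with 1 point per library for members, for the other barcodes kept and for low-UMI barcodes. Members lie above both other classes in every library for all 8 genes because the gate selected them, and the Mertk point of Trained replicate 1 sits below the other 3.

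The label was checked on 30 astrocyte markers that the gate did not use. All 30 were detected among members of every library, and 27 of them were higher in members than in the other barcodes in all 4 libraries, the exceptions being Sox9, Mt3 and Lcat. Against low-UMI barcodes, which hold mostly free RNA, 16 of the 30 were higher in members in all 4 libraries. Their summed level was 15502 and 19116 CPM in members of trained mice, against 19339 and 20854 CPM in untrained mice. The other barcodes held 10608 and 11352 CPM in trained mice, against 9514 and 10213 CPM in untrained mice. A large part of both sums comes from genes such as Lsamp and Ntm that neurons also express. The label was thus borne by most of the markers against the other barcodes kept, by about as many as not against free RNA, and by fewer UMIs per nucleus in Trained replicate 1 than in the other 3 libraries. Some markers of oligodendrocytes, their precursors and vessels were also higher in members than in the other barcodes, as given below.

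The gene outside the gate with the highest ratio of members to other barcodes was Gm20713, a predicted gene. It averaged 538 CPM in members and 66.5 CPM in the other barcodes, a log2 ratio of 2.69 after 20 CPM were added to both. Lama2, a laminin chain of basement membranes, came next at 286 CPM in members and 28.5 CPM in the other barcodes (log2 ratio 2.66). Slc1a2 was by far the most abundant of the leading 12, at 2354 CPM in members and 489 CPM in the other barcodes (log2 ratio 2.22). In single libraries it held 1700 and 2296 CPM in members of trained mice, against 2572 and 2850 CPM in untrained mice.

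The others covered several roles of astrocytes. Plpp3, which dephosphorylates lipid phosphates, averaged 307 CPM in members and 46.7 CPM in the other barcodes. Gli3, a transcription factor of hedgehog signalling, averaged 126 CPM in members and 9.42 CPM in the other barcodes. Phka1, a subunit of phosphorylase kinase, the enzyme that switches on glycogen breakdown, averaged 214 CPM in members and 32.4 CPM in the other barcodes. Sox6, Nhsl1, Fam20a, Atp13a4 and the zinc transporter Slc39a12 were also among them, with log2 ratios from 2.13 to 2.45.

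Low-UMI barcodes hold mostly RNA free in the suspension, and they were taken as barcodes near or below the most frequent UMI total of their library. Slc1a2 averaged 1020 CPM there, more than in the other barcodes kept and less than in members. The same order held for Plpp3 at 109 CPM. Gm20713 at 18.6 CPM and Sox6 at 28.5 CPM were instead lower in low-UMI barcodes than in the other barcodes kept. RNA of some astrocyte genes was thus also present in barcodes with little RNA, and its part in the values of members was not tested.

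**Figure D2:**
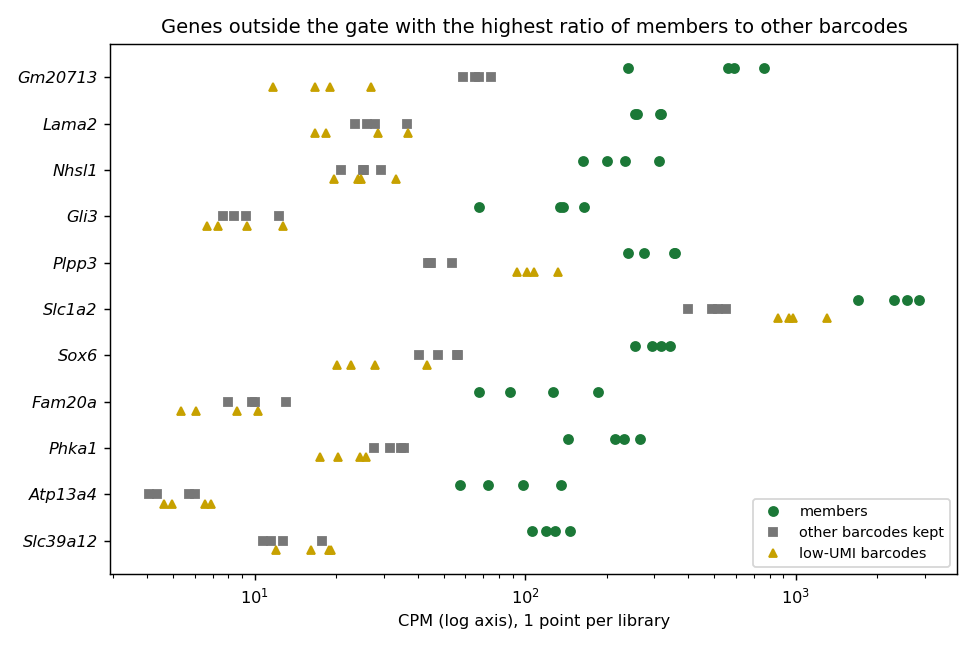
Shown are 11 of the 12 genes outside the gate with the highest ratio of members to the other barcodes, in CPM on a log axis, with 1 point per library for members, other barcodes kept and low-UMI barcodes. Member points lie to the right of both other classes for each gene, and low-UMI points of Slc1a2 and Plpp3 lie between members and the other barcodes.

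Transcripts of other cells were present in members. At least 1 UMI of the 9 genes of other classes was found in 79.9% and 78.7% of members of trained mice, against 66.7% and 73.8% of members of untrained mice. The 10 neuron markers summed to 12515 and 11082 CPM in members of trained mice, against 10396 and 10009 CPM in untrained mice. In the other barcodes they summed to 16485 and 16577 CPM in trained mice, against 16097 and 16918 CPM in untrained mice. All 10 were detected in members of every library. Low-UMI barcodes held 11230 and 10151 CPM of the same genes in trained mice, against 10363 and 10395 CPM in untrained mice. Neuron markers were thus about as abundant in members as in free RNA. In all 4 libraries 8 of 12 oligodendrocyte markers were higher in members than in the other barcodes. The same held for 6 of 10 endothelium and pericyte markers and 5 of 10 oligodendrocyte precursor markers. The oligodendrocyte markers summed to 1758 and 1939 CPM in members of trained mice, against 1822 and 2061 CPM in untrained mice. In the other barcodes they summed to 1443 and 1420 CPM in trained mice, against 1365 and 1363 CPM in untrained mice. The 10 microglia markers summed to 307 and 286 CPM in members of trained mice, against 399 and 407 CPM in untrained mice. In the other barcodes they summed to 303 and 226 CPM in trained mice, against 286 and 310 CPM in untrained mice. In members 5 of them (Csf1r, C1qb, C1qc, Ctss and Tmem119) were at 0 in at least 1 library.

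The mixture changed with depth in 3 of the 4 libraries. Members of under 750 UMIs held 11939 and 6892 CPM of neuron markers in trained mice, against 6850 and 5796 CPM in untrained mice. Members of 1000 UMIs and over held 11557 and 13562 CPM in trained mice, against 13254 and 13014 CPM in untrained mice. The 30 markers outside the gate went the other way. They held 15720 and 24681 CPM in the shallow members of trained mice, against 25313 and 28516 CPM in untrained mice. In members of 1000 UMIs and over they held 15451 and 16030 CPM in trained mice, against 15190 and 15916 CPM in untrained mice. Trained replicate 1 had the deep-nucleus mixture at every depth. The gate asked for the same 4 UMIs at every depth, so shallow members needed a larger part of their UMIs from gate genes. Gate genes summed to 8738 and 12328 CPM in shallow members of trained mice, against 12001 and 13078 CPM in untrained mice. In members of 1000 UMIs and over they summed to 6107 and 5493 CPM in trained mice, against 5175 and 5565 CPM in untrained mice. The part of this rule in the pattern was not tested.

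**Figure D3:**
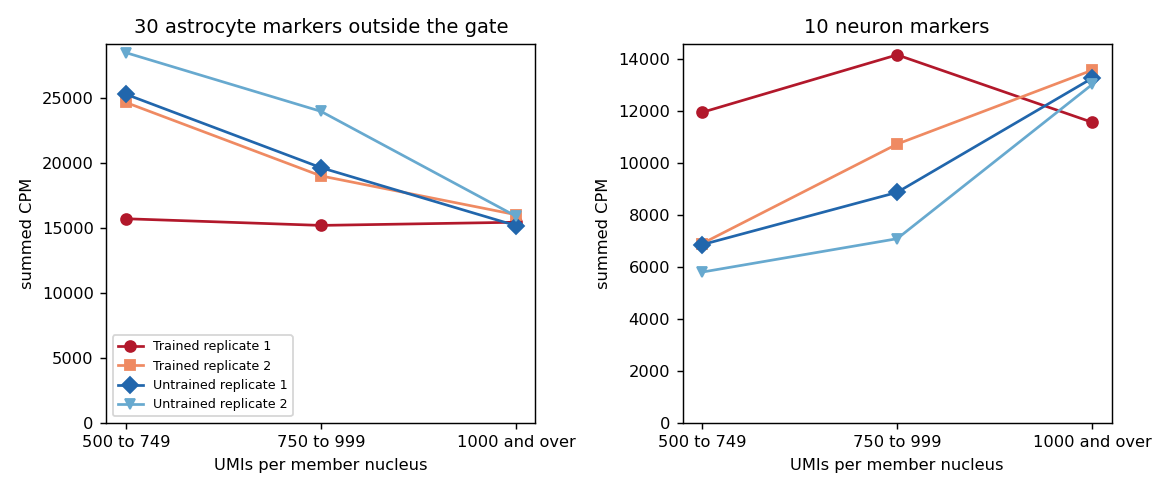
Summed CPM of the 30 astrocyte markers outside the gate (left panel) and of 10 neuron markers (right panel) by UMIs per member nucleus, with 1 line per library. Astrocyte markers were lower and neuron markers higher in deeper members of Trained replicate 2 and both untrained libraries, whereas the lines of Trained replicate 1 stayed between 15206 and 15720 CPM and between 11557 and 14152 CPM.

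At a gate sum of 4, members held 1666 and 1688 CPM of Slc1a2 in trained mice, against 2052 and 2073 CPM in untrained mice. Barcodes with a sum of 3 that met the other conditions held 1504 and 1268 CPM in trained mice, against 1742 and 1423 CPM in untrained mice. At a sum of 8 and over, members held 1887 and 2638 CPM in trained mice, against 2881 and 3029 CPM in untrained mice. Slc1a2, which the gate did not read, was thus higher at higher gate sums in each library. Other markers were less regular. In Trained replicate 2, Apoe was at 1121 CPM at a sum of 4, 723 CPM at a sum of 3 and 1019 CPM at 8 and over, and Slc4a4 was at 783, 466 and 724 CPM in the same order.

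The share of members among the barcodes kept was 1.31% and 3.84% in trained mice, against 4.80% and 5.26% in untrained mice. The exact Clopper-Pearson 95% intervals, which cover counting error only, were 1.103% to 1.56% and 3.54% to 4.16% in trained mice, against 4.50% to 5.10% and 4.88% to 5.65% in untrained mice. Both trained libraries lay below both untrained ones, with a mean of 2.58% ± 1.79 in trained mice and 5.03% ± 0.328 in untrained mice (SD, n = 2 each). The log2 ratio was -0.96 with an exact two-sided permutation p of 0.333, the smallest that 6 splits of 4 libraries allow. The difference depended on the UMI minimum and kept its sign in other settings. With at least 1000 UMIs the shares were 2.28% and 4.25% in trained mice, against 3.67% and 3.25% in untrained mice (log2 ratio -0.085). With at least 300 UMIs the log2 ratio was 0.32. That minimum lies below the most frequent total of Untrained replicate 1, 305 UMIs, where barcodes kept rose from 19810 to 58725. They rose in each library, and the part of the added barcodes was not tested. At the minimum of 500 UMIs, the log2 ratio was -1.15 after thinning and -1.27 with a gate sum of at least 6. It was -1.45 with no UMI of other classes and -0.85 with at most 1% mitochondrial UMIs. Without Trained replicate 1 the log2 ratio was -0.39, and without Trained replicate 2 it was -1.94.

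Training was compared in counts summed over the members of each library with the quasi-likelihood test of edgeR. Ttr rose and Rnf121 fell. No other gene of 9410 tested passed an adjusted p of 0.05, so that 0.0213% of the genes tested were called, 0.0106% as higher and 0.0106% as lower. Without adjustment 873 genes (9.28%) had a p under 0.05, 394 of them higher in trained mice (4.19%) and 479 lower (5.09%). Both trained libraries lay above both untrained ones in 19.9% of the genes tested and below them in 20.4%. The median log2 change of all genes tested was -0.0034. Without Trained replicate 1 the same test called 2 genes, Ttr and Rnf121, again; without Trained replicate 2 it called 5, and without Untrained replicate 2 it called 147, of which 35 were higher and 112 lower. With each nucleus thinned to 500 UMIs it called 81 genes, 52 higher and 29 lower. With members of at least 1000 UMIs it called 0 of 6674, with 255 at an unadjusted p under 0.05 and no other tool run, so that neither Ttr nor Rnf121 passed there.

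Ttr encodes transthyretin, a carrier of thyroid hormone that the choroid plexus makes in large amounts. It was at 1134 and 1283 CPM (adjusted by the trimmed mean of M values, TMM, as in the values of single genes that follow; summed levels of lists are plain CPM) in members of trained mice, against 362 and 610 CPM in untrained mice. Both trained libraries lay above both untrained ones. The log2 change was 1.33 (SE 0.21, edgeR adjusted p = 0.000988, after Benjamini and Hochberg). Without Trained replicate 1 it was 1.41.

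The direction was the same outside astrocyte nuclei. Of 15001 genes tested in low-UMI barcodes edgeR called 0 (0.0%), while an unadjusted p under 0.05 was reached by 1542 (10.3%). DESeq2 called 19 there. In low-UMI barcodes Ttr was at 3301 and 4369 CPM in trained mice, against 1068 and 1682 CPM in untrained mice, a log2 change of 1.48 (SE 0.30, edgeR adjusted p = 0.391). In oligodendrocyte nuclei, gated in the same way, the log2 change was 0.91 (SE 0.25, edgeR adjusted p = 0.659). In dentate granule nuclei it was 1.57 (SE 0.17, edgeR adjusted p = 4.28e-05), and Ttr was the 1 gene called of 11527 tested there. The difference between astrocyte and oligodendrocyte nuclei was 0.41 (SE 0.22, edgeR adjusted p = 0.999). That between astrocyte and granule nuclei was -0.25 (SE 0.17, edgeR adjusted p = 0.870). The 10 choroid plexus markers, of which Ttr is 1, summed to 1594 and 1616 CPM in members of trained mice, against 592 and 856 CPM in untrained mice. In low-UMI barcodes they summed to 4185 and 5089 CPM in trained mice, against 1335 and 2142 CPM in untrained mice. The defining markers Folr1, Clic6, Kcne2, Otx2, Igf2 and Aqp1 were at 0 in members of at least 1 library. A low-UMI profile was also subtracted from the summed counts of each library, at the most frequent UMI total of that library for every member. The Ttr change was then 1.83 and no longer passed (edgeR adjusted p = 0.533), and 0 of 7835 genes passed in that setting. The part of free RNA in the change in members was not tested beyond these values.

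Rnf121 encodes a ubiquitin ligase of the endoplasmic reticulum and Golgi membranes. It was at 19.9 and 42.0 CPM in members of trained mice, against 126 and 295 CPM in untrained mice, from 2 and 21 UMIs in trained mice, against 110 and 197 UMIs in untrained mice. Both trained libraries lay below both untrained ones, and in CPM the untrained libraries differed from each other by more than the trained ones. The log2 change was -2.45 (SE 0.38, edgeR adjusted p = 0.000988). It ranged from -3.38 to -1.74 when each library was left out in turn and passed each time. In GENCODE vM21 (GRCm38) the gene spans chr7:102019137-102065469 on the minus strand, and no other annotated gene overlaps it. The promoter window shown above follows a RefSeq start and lies wholly within this span, so the GENCODE gene begins upstream of that window.

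The Rnf121 difference had the same sign elsewhere with smaller values. Low-UMI barcodes held 31.4 and 33.6 CPM in trained mice, against 46.2 and 57.0 CPM in untrained mice, a log2 change of -0.66 (SE 0.15, edgeR adjusted p = 0.391). The log2 change was -0.88 in oligodendrocyte nuclei (SE 0.45, edgeR adjusted p = 0.719) and -1.58 in dentate granule nuclei (SE 0.28, edgeR adjusted p = 0.0607). The difference between astrocyte and oligodendrocyte nuclei was -1.73 (SE 0.55, edgeR adjusted p = 0.921) and that between astrocyte and granule nuclei was -0.88 (SE 0.37, edgeR adjusted p = 0.740). The level in members of both untrained libraries exceeded that in low-UMI barcodes, whereas the trained levels lay to either side of it.

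The share of members with a Rnf121 UMI was compared as well. After every nucleus was thinned to 500 UMIs, a Rnf121 UMI was found in 0.746% and 1.57% of members of trained mice, against 6.32% and 13.6% of members of untrained mice. Without thinning the shares were 1.49% and 3.50% in trained mice, against 10.5% and 23.1% in untrained mice. In thinned granule nuclei the gene was found in 1.44% and 1.35% of nuclei of trained mice, against 3.37% and 8.29% of nuclei of untrained mice. In thinned oligodendrocyte nuclei the shares were 0.80% and 3.88% in trained mice, against 2.21% and 5.82% in untrained mice, and the groups overlapped. The exact permutation p over libraries was 0.333 in members and in granule nuclei, the smallest possible, and 0.667 in oligodendrocyte nuclei.

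Next in rank among higher genes stood Epha6, a receptor for ephrins that neurons express. It was at 1502 and 1311 CPM in members of trained mice, against 700 and 799 CPM in untrained mice, a log2 change of 0.90 (SE 0.18, edgeR adjusted p = 0.0716). DESeq2 gave it an adjusted p of 0.04999, just under the threshold, as the only gene beside Ttr and Rnf121. Among members of under 750 UMIs its log2 change was 2.02, and among members of 1000 UMIs and over it was 0.46. Outside members the log2 change of Epha6 was 0.92 in oligodendrocyte nuclei, 0.23 in dentate granule nuclei and 0.57 in low-UMI barcodes.

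Ryr3, a ryanodine receptor that releases calcium from internal stores, was at 458 and 474 CPM in members of trained mice, against 180 and 272 CPM in untrained mice (log2 change 1.06, SE 0.22, edgeR adjusted p = 0.0740). Dgkg, a diacylglycerol kinase, was at 209 and 286 CPM in members of trained mice, against 125 and 130 CPM in untrained mice (log2 change 1.04). Tafa1, a secreted neuronal chemokine-like protein, was at 1025 and 817 CPM in members of trained mice, against 483 and 483 CPM in untrained mice (log2 change 0.90). Htr2c, a serotonin receptor of neurons and choroid plexus, was at 159 and 164 CPM in members of trained mice, against 55.02 and 88.3 CPM in untrained mice (log2 change 1.20). None of these 4 passed the adjusted threshold. In low-UMI barcodes the log2 changes were 0.39 for Ryr3, 0.22 for Dgkg, 0.56 for Tafa1 and 0.61 for Htr2c. In oligodendrocyte nuclei they were 0.91, 0.70, 0.70 and -0.37 in the same order. In dentate granule nuclei they were 0.20, -0.026, 0.13 and 0.99. Neuron markers were also higher in members of trained mice, as given above, and their part in the values of these genes in members was not tested.

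Next in rank among lower genes stood Gapdh, an enzyme of glycolysis. It was at 169 and 266 CPM in members of trained mice, against 531 and 441 CPM in untrained mice (log2 change -1.04, SE 0.23, edgeR adjusted p = 0.0740). Psmc2, an ATPase subunit of the proteasome, was at 19.9 and 26.0 CPM in members of trained mice, against 76.8 and 70.3 CPM in untrained mice (log2 change -1.56). Sub1, a transcription coactivator, was at 149 and 138 CPM in members of trained mice, against 332 and 235 CPM in untrained mice (log2 change -1.02). Uqcrq, a subunit of respiratory complex III, was at 119 and 144 CPM in members of trained mice, against 339 and 212 CPM in untrained mice (log2 change -1.01). None of the 4 passed the adjusted threshold. In low-UMI barcodes the log2 changes were -0.51 for Gapdh, -0.35 for Psmc2, -0.39 for Sub1 and -0.35 for Uqcrq. In oligodendrocyte nuclei they were -0.61, -0.16, -1.07 and -0.41 in the same order. In dentate granule nuclei they were -0.48, -0.66, -0.27 and -0.40.

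The transcript AY036118, which shares sequence with ribosomal RNA, was at 1005 and 1367 CPM in members of trained mice, against 2916 and 1504 CPM in untrained mice (log2 change -0.87), so that Untrained replicate 1 alone was high. Gm42418, of the same kind, had a log2 change of -0.74 and Fth1, the ferritin heavy chain, of -0.54. Reads of the first 2 may be split with near-identical copies. In low-UMI barcodes the log2 changes were -0.70 for AY036118, -0.66 for Gm42418 and -0.38 for Fth1. Cmss1, the homolog of yeast Cms1, had log2 changes of -0.74 in members and -0.71 in low-UMI barcodes. Thsd4, a protein of the extracellular matrix, rested on 12 and 32 UMIs in trained mice, against 23 and 21 UMIs in untrained mice (log2 change 1.39). Lrrtm4, a synaptic adhesion protein of neurons, had a log2 change of 0.30. None of these 6 passed the adjusted threshold.

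The ranked genes depended on single libraries. Without Trained replicate 1 the log2 change was 0.81 for Epha6, 1.08 for Ryr3 and -0.87 for Gapdh, and 2 of the 12 genes ranked highest in either direction passed, Ttr and Rnf121. Without Untrained replicate 2 all 12 passed, AY036118 included.

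**Figure D4:**
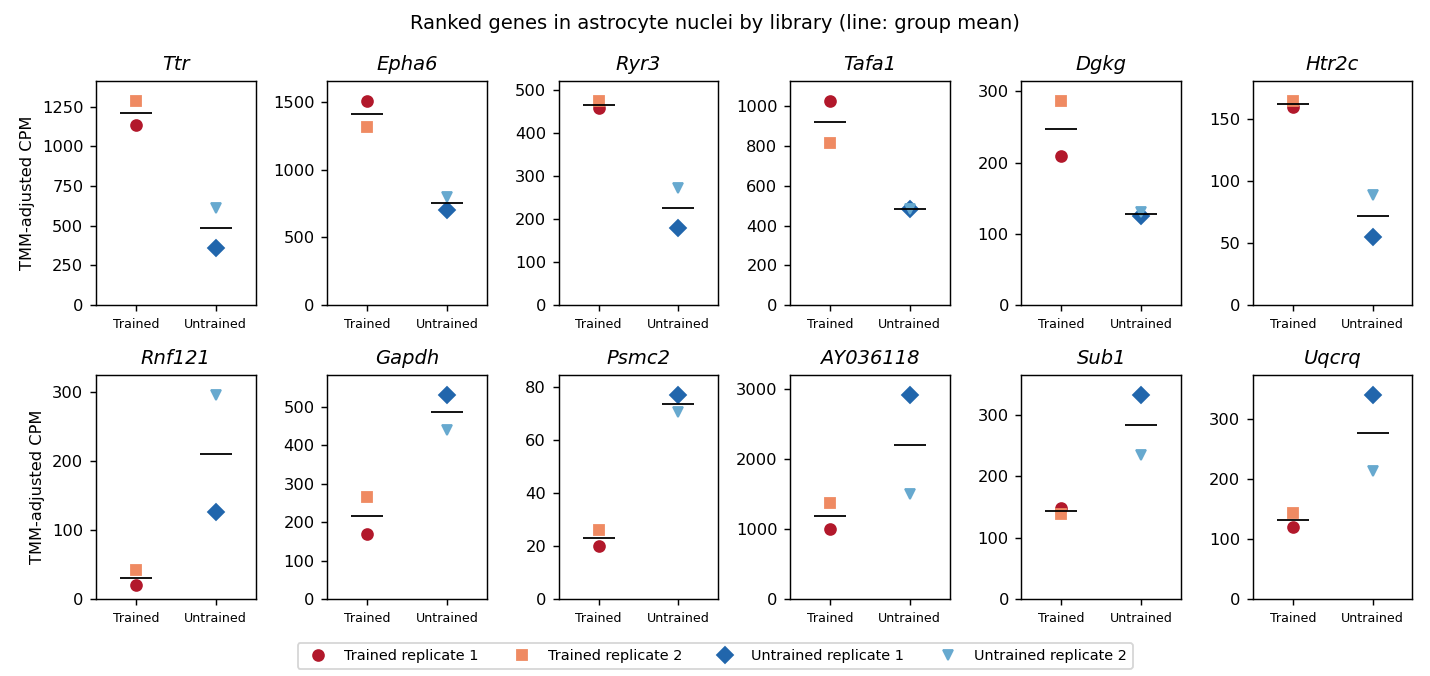
The 6 highest-ranked genes in each direction in members, in TMM-adjusted CPM from 0, with trained libraries on the left and untrained on the right of each panel, points for libraries and lines for group means. The groups do not overlap in any panel because the rule for ranking asked for it, and Ttr and Rnf121 are the 2 genes that passed the adjusted threshold.

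Astrocyte markers outside the gate leaned lower in trained mice, with no gene past the adjusted threshold. Of 30, 29 were tested, and 27 had a lower and 2 a higher value in trained mice. At an unadjusted p under 0.05, 5 were lower and none higher, against 5.09% and 4.19% of all genes tested. In 15 of the 29 both trained libraries lay below both untrained ones, against 20.4% of all genes tested. The median log2 change was -0.31, against -0.0034 over all genes tested. Without Trained replicate 1 the median was -0.19, with 24 of 30 lower, and without Trained replicate 2 it was -0.71. Without Untrained replicate 2 it was -0.20. With at least 300 UMIs per nucleus the median was -0.075, with 22 of 30 lower and none at an unadjusted p under 0.05, and with at least 1000 UMIs it was -0.15, with 17 of 25 lower. In low-UMI barcodes the median of the list was 0.15. Trained replicate 1 also held the lowest gate sums and the most neuron markers, and the part of this mixture in the list's values was not tested.

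Single markers show the pattern. Slc1a2 was at 1761 and 2454 CPM in members of trained mice, against 2650 and 2983 CPM in untrained mice (log2 change -0.40, SE 0.18, edgeR adjusted p = 0.472). Apoe, the main lipid carrier, was at 736 and 1071 CPM in members of trained mice, against 1307 and 1359 CPM in untrained mice (log2 change -0.51, edgeR adjusted p = 0.394). Both genes were lowest in Trained replicate 1. Plpp3 was at 249 and 294 CPM in members of trained mice, against 369 and 372 CPM in untrained mice (log2 change -0.41).

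Less abundant markers gave few counts. Sox9, a transcription factor of the astrocyte lineage, rested on 1 and 5 UMIs in trained mice, against 23 and 22 UMIs in untrained mice (log2 change -1.53, SE 0.58, edgeR adjusted p = 0.405). Aqp4, the water channel of astrocyte end-feet, was at 39.8 and 49.96 CPM in members of trained mice, against 63.0 and 85.3 CPM in untrained mice (log2 change -0.61). Gfap, an intermediate filament of astrocytes, was at 29.8 and 24.0 CPM in members of trained mice, against 29.8 and 68.8 CPM in untrained mice (log2 change -0.92), so that Untrained replicate 2 alone was high. Gja1, the gap junction protein connexin 43, was at 79.6 and 122 CPM in members of trained mice, against 119 and 138 CPM in untrained mice (log2 change -0.20), and the groups overlapped.

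Shares of members with a UMI of these genes were compared after thinning to 500 UMIs. Slc1a2 was found in 60.4% and 68.5% of members of trained mice, against 71.6% and 74.7% of members of untrained mice. Without thinning the shares were 72.4% and 85.0% in trained mice, against 86.8% and 88.1% in untrained mice. In thinned oligodendrocyte nuclei, given as background, it was found in a mean of 19.5% of nuclei in trained mice and 22.8% in untrained mice. The part of free RNA in such a background was not tested. Apoe was found in a mean of 35.7% of members of trained mice and 49.5% of members of untrained mice, with a background in oligodendrocyte nuclei of 19.8% in trained mice and 35.0% in untrained mice. Gfap was found in a mean of 0.810% of members of trained mice and 2.62% of members of untrained mice, with a background in oligodendrocyte nuclei of 0.594% in trained mice and 0.520% in untrained mice, and in granule nuclei of 0.811% in trained mice and 0.754% in untrained mice. The shares in trained mice rest on 1 and 5 members with a UMI. The exact permutation p over libraries was 0.333 for each of the 3 genes in members.

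Glutamate handling showed no called gene. Of 14 genes of uptake and glutamine metabolism 12 were tested, 5 with a higher and 7 with a lower value in trained mice, and the median log2 change was -0.13. Glul was at 209 and 230 CPM in members of trained mice, against 205 and 295 CPM in untrained mice (log2 change -0.15), and the groups overlapped. Slc6a11, a GABA transporter of astrocytes, was at 39.8 and 108 CPM in members of trained mice, against 131 and 127 CPM in untrained mice, with Trained replicate 1 lowest.

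For potassium buffering, water and gap junctions 17 of 19 genes were tested, 4 with a higher and 13 with a lower value in trained mice, none at an unadjusted p under 0.05, and the median was -0.23. With at least 1000 UMIs per nucleus 8 had a higher and 8 a lower value, so that the lean was absent there. Slc4a4, a bicarbonate cotransporter, was at 557 and 741 CPM in members of trained mice, against 571 and 836 CPM in untrained mice (log2 change -0.07), so that replicates differed by more than groups. Kcnj10, the inward rectifier Kir4.1, rested on 6 and 16 UMIs in trained mice, against 37 and 41 UMIs in untrained mice (log2 change -0.45, SE 0.39).

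For glycogen, glycolysis and lactate 25 of 30 genes were tested, 11 with a higher and 14 with a lower value, and the median was -0.03. At an unadjusted p under 0.05, 3 were higher and 1 lower, against 4.19% and 5.09% of all genes tested. Slc16a1, the monocarboxylate transporter MCT1 that carries lactate, had the largest log2 change of the list at 1.53 (SE 0.56, edgeR adjusted p = 0.393). It rested on 4 and 13 UMIs in trained mice, against 8 and 7 UMIs in untrained mice. Gapdh was the lower gene of the list that is given above.

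For lipid and cholesterol genes 23 of 31 were tested, 11 with a higher and 12 with a lower value, and the median was -0.02. Clu, clusterin, a lipoprotein that astrocytes secrete, was at 169 and 168 CPM in members of trained mice, against 221 and 244 CPM in untrained mice (log2 change -0.46, edgeR adjusted p = 0.563). Enzymes of cholesterol synthesis Idi1, Dhcr7 and Lss were too low to be tested.

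Secreted and surface genes of synapses were balanced, with 16 of 31 tested higher, 15 lower and a median of 0.03. Tenm2, a teneurin that neurons carry at synapses, was at 2696 and 2424 CPM in members of trained mice, against 1530 and 1677 CPM in untrained mice (log2 change 0.67, SE 0.17, edgeR adjusted p = 0.157). Gpc6, a glypican that astrocytes release and that promotes synapses in culture, was at 219 and 216 CPM in members of trained mice, against 345 and 325 CPM in untrained mice (log2 change -0.63, SE 0.23, edgeR adjusted p = 0.379). In low-UMI barcodes Gpc6 had a log2 change of 0.30.

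Receptors and calcium signalling genes gave 17 higher and 12 lower of 29 tested and a median of 0.13. Their median in low-UMI barcodes was 0.13 as well. At an unadjusted p under 0.05, 4 were higher and none lower, against 4.19% and 5.09% of all genes tested. Ryr3, given above, and Adra1b were the 2 with the smallest p. Adra1b, a receptor for noradrenaline, had a log2 change of 1.60 (SE 0.55, edgeR adjusted p = 0.354) from 3 and 15 UMIs in trained mice, against 8 and 7 UMIs in untrained mice.

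Growth factor and adhesion receptors gave 23 higher and 16 lower of 39 tested, 7 higher and none lower at an unadjusted p under 0.05, where 4.19% of all genes were higher, and a median of 0.09. Without Untrained replicate 1 the median turned to -0.034, with 18 higher and 21 lower, 2 higher and 1 lower at that p. It was 0.077 without Trained replicate 1, with 2 higher at that p. Nrp1, a receptor for semaphorins and vascular growth factor, was at 259 and 286 CPM in members of trained mice, against 120 and 160 CPM in untrained mice (log2 change 0.99, SE 0.23, edgeR adjusted p = 0.108). Robo2, a receptor for Slit proteins, was at 537 and 518 CPM in members of trained mice, against 340 and 359 CPM in untrained mice (log2 change 0.59).

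Transcription factors of astrocytes and Notch genes leaned lower, with 8 higher and 25 lower of 33 tested and a median of -0.19. At an unadjusted p under 0.05, 1 was higher and 3 were lower, against 4.19% and 5.09% of all genes tested. The median was -0.11 without Trained replicate 1, and with at least 300 UMIs per nucleus 17 were higher and 18 lower. Id4, an inhibitor of basic helix-loop-helix factors, was at 39.8 and 29.98 CPM in members of trained mice, against 58.5 and 79.3 CPM in untrained mice (log2 change -1.09, SE 0.38, edgeR adjusted p = 0.354). Reactive astrocyte genes were mostly too low to be tested, with 6 of 41 passing the count filter. S100b, a calcium-binding protein of that list, rested on 1 and 28 UMIs in trained mice, against 59 and 50 UMIs in untrained mice (log2 change -0.60). Of 22 genes of radial glia-like and stem cells 6 were tested, and Dcx, a gene of immature neurons, rested on 1 and 6 UMIs in trained mice, against 29 and 17 UMIs in untrained mice (log2 change -1.34). Of 17 genes that tell astrocytes of the telencephalon from those of the diencephalon 11 were tested, 2 with a higher and 9 with a lower value and a median of -0.16.

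Immediate early genes, which follow recent activity, gave 4 higher and 8 lower of 12 tested and a median of -0.30. Egr1 was at 49.7 and 46.0 CPM in members of trained mice, against 81.4 and 70.3 CPM in untrained mice (log2 change -0.70, SE 0.34, edgeR adjusted p = 0.517). Nr4a3 was at 29.8 and 44.0 CPM in members of trained mice, against 21.8 and 23.9 CPM in untrained mice (log2 change 0.85). Fos and Npas4 were too low to be tested. Stress and corticosteroid genes gave 5 higher and 9 lower of 14 tested and a median of -0.15. The metallothionein Mt1, which binds zinc, was at 199 and 324 CPM in members of trained mice, against 442 and 429 CPM in untrained mice (log2 change -0.62, SE 0.22, edgeR adjusted p = 0.375).

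Cytosolic ribosomal protein genes had lower values in trained mice, though no single gene was called. All 60 were tested and all 60 had a lower value, 35 of them at an unadjusted p under 0.05, with a median log2 change of -0.49 and a range from -0.83 to -0.11. Over all genes tested 5.09% were lower at that p. In 45 of the 60 both trained libraries lay below both untrained ones, against 20.4% of all genes tested. The counts depended on single libraries and on depth. Without Untrained replicate 1, 54 of the 60 were lower, 6 of them at an unadjusted p under 0.05, and the median was -0.31. Without Untrained replicate 2, 53 were lower at that p, 12 were called, and the median was -0.68. At that p 17 were lower when Trained replicate 1 was left out, and 13 when Trained replicate 2 was. With at least 300 or at least 1000 UMIs per nucleus 58 were lower, 3 of them at that p. Their summed level was 11267 and 11654 CPM in members of trained mice, against 18936 and 13912 CPM in untrained mice, so that Untrained replicate 1 stood highest. The other barcodes kept held 11419 and 10659 CPM in trained mice, against 16586 and 11492 CPM in untrained mice. Low-UMI barcodes held 33360 and 41707 CPM in trained mice, against 46869 and 40510 CPM in untrained mice, and the median log2 change there was -0.30. The measure of free RNA differed between the groups, as did the lowest UMI totals deposited, both given above. The part of free RNA in the list's values was not tested.

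Markers of other cells were counted in the same test. Of 10 neuron markers 8 had a higher value in trained mice, with a median of 0.21. With at least 1000 UMIs per nucleus 2 of the 10 had a higher value, with a median of -0.044. The median was 0.13 without Trained replicate 1. Meg3, a long noncoding RNA abundant in neurons, was at 4317 and 3847 CPM in members of trained mice, against 2881 and 3250 CPM in untrained mice (log2 change 0.41, edgeR adjusted p = 0.436). The gate itself reads 4 of the 12 markers of CA1 and CA3 pyramidal cells, Man1a, Galntl6, Grik4 and Trps1, as genes of other cells. Of the 8 that it does not read 5 had a higher and 3 a lower value, with a median of 0.03. At an unadjusted p under 0.05, 1 of them was higher, against 4.19% of all genes tested. The 8 tested oligodendrocyte markers that the gate does not read had a median of 0.0010 and the 3 tested choroid plexus markers a median of 1.20, with Ttr called. The medians were 0.10 over 7 tested granule cell markers that the gate does not read, -0.10 over 10 of inhibitory neurons, -0.13 over 8 of thalamic and habenular neurons and -0.13 over 6 of oligodendrocyte precursors. The 4 tested microglia markers had a median of 0.18, the 5 of endothelium and pericytes 0.44 and the 2 of ependyma 0.0096. No other marker of another cell type was called.

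**Figure D5:**
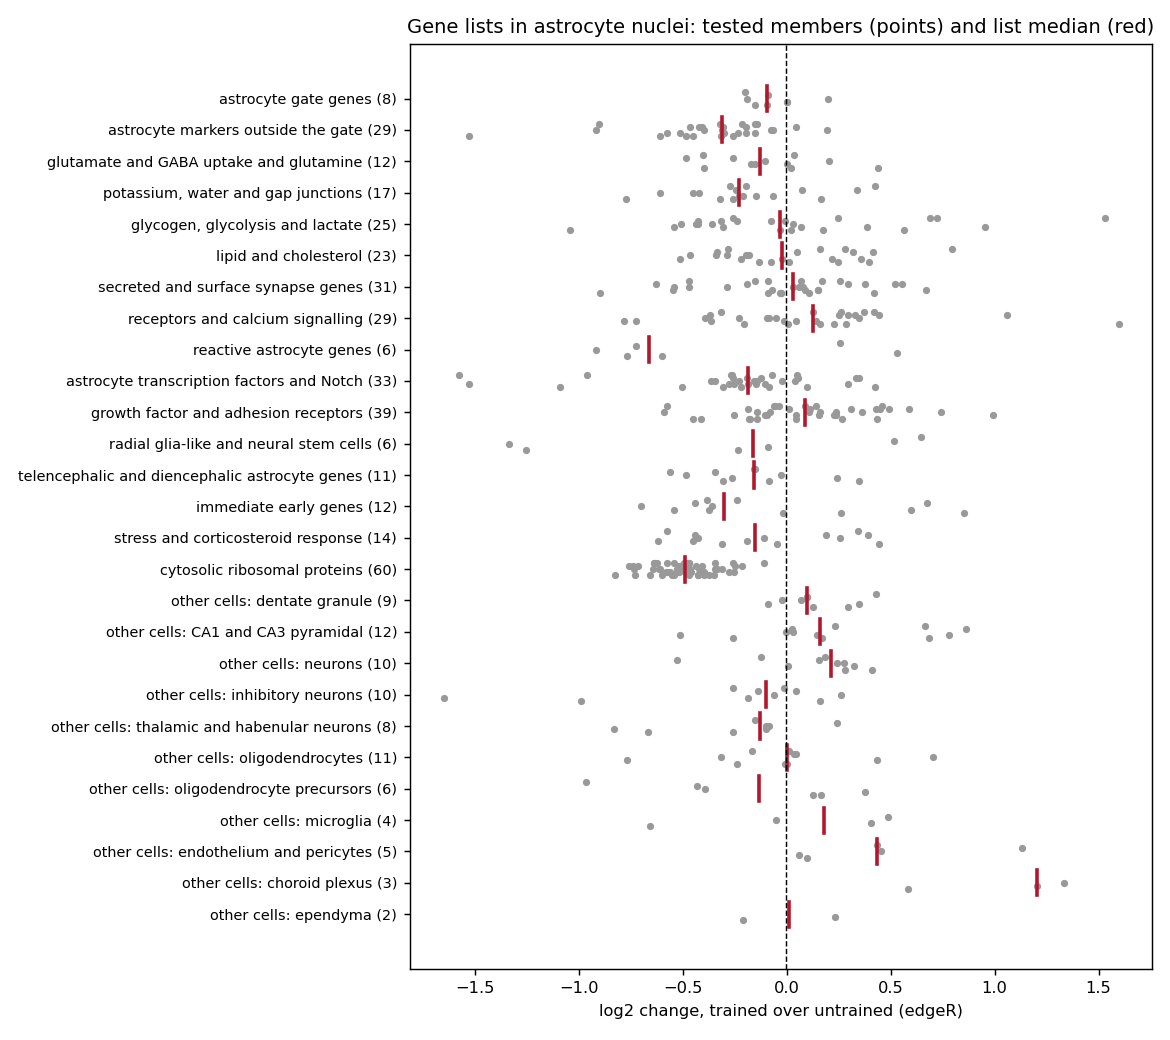
The log2 change of trained over untrained mice by gene list in members, with 1 point per tested gene, a red bar at the list's median and a dashed line at the median of all genes tested. The 60 ribosomal protein genes all lie below 0, the astrocyte markers outside the gate have a median of -0.31, and the 3 choroid plexus markers lie above 0. The number beside each list counts its tested genes.

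Whether training changed genes differently in astrocyte nuclei than in other cells was tested as an interaction with the library as a block. Against 1168 oligodendrocyte nuclei no gene of 8608 was called by edgeR, a background of 0.0%, with 398 genes (4.62%) at an unadjusted p under 0.05. DESeq2 also called 0 there, with 26 at that unadjusted p. Against 4552 dentate granule nuclei no gene of 10990 was called by edgeR, again 0.0%, with 671 genes (6.11%) at an unadjusted p under 0.05. DESeq2 called 0 there too, with 81 at that unadjusted p. Leaving out 1 library gave 1 to 40 calls against granule nuclei and none against oligodendrocyte nuclei. The most, 40, came without Trained replicate 2, and 4 came without Trained replicate 1.

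The gene with the smallest p against oligodendrocyte nuclei was Ptprz1, a receptor phosphatase of glia. Its plain CPM, used for both classes of nuclei in this comparison, was 423 and 468 in astrocyte nuclei of trained mice, against 601 and 620 in untrained mice, and in oligodendrocyte nuclei it was 331 and 208 in trained mice, against 140 and 149 in untrained mice. The difference of log2 changes was -1.19 (SE 0.29, edgeR adjusted p = 0.230). St6galnac3, a sialyltransferase, followed at 0.99 (SE 0.24, edgeR adjusted p = 0.230), with 307 and 368 CPM in astrocyte nuclei of trained mice, against 164 and 227 CPM in untrained mice. The next in order were Gm21954 and Mgll, a lipase that breaks down an endocannabinoid, at -4.04 and -1.28.

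Against granule nuclei the smallest p fell to Dgkg, with a difference of log2 changes of 1.001 (SE 0.21, edgeR adjusted p = 0.125). In plain CPM, Dgkg was at 340 and 408 CPM in granule nuclei of trained mice, against 350 and 427 CPM in untrained mice, and both groups overlapped there. Ryr3 followed at 0.90 (SE 0.19, edgeR adjusted p = 0.125), with 401 and 304 CPM in granule nuclei of trained mice, against 284 and 314 CPM in untrained mice. Lmo7 stood at 1.21 and Luzp2 at -1.05, and neither passed the adjusted threshold. In oligodendrocyte nuclei the log2 changes of Dgkg and Ryr3 were 0.70 and 0.91, and all these comparisons share their libraries.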

How the data were processed

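The labels' protocol names the 10x Genomics 3' chemistry v3.1 for these single-nucleus libraries. The authors deposited raw UMI counts for 32285 features by barcode. The file headers give the writing program as Cell Ranger 7.0.0. The submitters' processing notes name STAR, Cell Ranger 8 and the build mm39 (GRCm39), so the 2 sources differ in the version. The deposited barcodes include many of low depth that hold free RNA, and no correction for it is given in the sources used here. No read position is used here, and positions come from GENCODE vM21 and RefSeq on GRCm38.

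The members and the gene lists were chosen with earlier results of these data known. Members were found by the gate stated in the report, in Python 3.11.15 with numpy 2.4.6, scipy 1.17.1 and pandas 2.3.3. No doublet caller was run. The gate drops barcodes in which genes of other classes reach the gate sum, and the alternatives below left out the 5% of members with the most UMIs or members with any UMI of the 9 other genes. Oligodendrocyte and dentate granule nuclei were gated likewise, on at least 3 UMIs from at least 2 marker genes. Low-UMI barcodes lay near or below the mode of UMIs per barcode, taken in bins of 10 UMIs. Plain CPM divides a gene's counts by all counts of the same barcodes, and TMM-adjusted CPM divides by the scaled library size. CPM is not scaled by transcript length, which for 3' counts is not needed.

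Counts were summed over nuclei per library and tested in R 4.3.3 with edgeR 4.0.16 (filterByExpr, TMM, quasi-likelihood F test, two-sided, Benjamini-Hochberg adjustment over all genes tested, threshold 0.05). Interactions had the library as a block. Standard errors were taken from the size of the log2 change and the F statistic. The fit drew the variance of each gene towards a value shared across genes (median prior of 34.4 degrees of freedom in members). Shares and shares of nuclei with a UMI were compared by an exact two-sided permutation of libraries (6 splits). The steps were tested on simulated counts. Intervals are Clopper-Pearson at 95% and cover counting error only.

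Genes are named by rule: called genes, filled up to 6 in each direction with the smallest unadjusted p among genes whose groups do not overlap, leaving out mitochondrial, ribosomal protein, predicted and sex genes. Also named are 8 gate genes, 10 known astrocyte genes, 11 genes singled out in earlier results, 2 members of each list with the smallest p, the 4 smallest p of each interaction, and the 12 leading genes against other barcodes with at least 50 CPM in every library. The text leaves out some of the list members, a few of these genes are not reported here, and it names a few others beyond the rule after their values were seen. Lists are described by counts and medians, with no set test.

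Alternatives were DESeq2 1.42.0, edgeR with DESeq2's size factors, a fit without the count filter, a replicate block, each library left out, minimums of 1000 and 300 UMIs, at most 1% mitochondrial UMIs, a gate sum of at least 6, no UMI of other classes, the top 5% left out, thinning to 500 UMIs (seed 1) and a low-UMI profile subtracted. Members of under 750 UMIs were added after the data were seen. Tagged neurons were not analysed here.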

Additional observations from a re-analysis of the deposited data

How the results depend on the processing

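The count of 2 genes called in members was 14 with no count filter, 10 without the top 5% of UMIs, 81 with nuclei thinned to 500 UMIs, 20 in members of under 750 UMIs (a setting chosen after seeing the data), 1 with no UMI of other classes, and 0 at 1000 UMIs or with the low-UMI profile subtracted, the last with 390 genes at an unadjusted p under 0.05. It ranged from 2 to 147 when each library was left out, and the lone sample of a group was then assumed to vary like the other group. DESeq2 called 3 genes. Deviations of same-numbered libraries had a correlation of 0.0188, a single value that includes counting error and cannot show whether the numbers pair the libraries. With a replicate block 17 genes were called. In low-UMI barcodes 0 genes were called, against 19 with DESeq2, 201 with no count filter, 1 with a replicate block and 26 to 942 without 1 library. The interaction with granule nuclei gave 1 call with no count filter and 1 to 40 without 1 library, and that with oligodendrocyte nuclei gave 0 in every setting run.

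The log2 ratio of the share of members was 0.32 at a minimum of 300 UMIs, in place of -0.96, and -1.94 to -0.39 without 1 library. Ttr kept its sign in 17 settings and lost its call in 4, and Rnf121 kept its sign in 17 and lost its call in 2. Gene lists moved too. Without Trained replicate 1 the median log2 change was -0.19 for potassium, water and gap junctions, 0.11 for receptors and calcium signalling, -0.12 for telencephalic and diencephalic genes, -0.13 for immediate early genes, -0.11 for stress genes and -0.0030 for glutamate handling. It turned to 0.28 for immediate early genes and 0.041 for stress genes at 1000 UMIs, to 0.049 for immediate early genes and 0.018 for glutamate handling at 300 UMIs, and to 0.049 for stress genes and 0.044 for glutamate handling without Untrained replicate 2. Lists with medians near 0 also changed sign in some settings.

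Some genes that were not called turned round. At 1000 UMIs the log2 change was -0.077 for Lrrtm4, 0.43 for Glul, 0.060 for Clu, -0.032 for Dock10, -0.28 for Stxbp6 and -0.062 for Meg3. At 300 UMIs it was 0.078 for Glul, 0.014 for Gja1 and 0.0061 for Mfge8, and at a gate sum of 6 it was 0.031 for Glul and 0.051 for Gja1. Leaving out 1 library gave -0.40 to 0.11 for Glul, -0.35 to 0.23 for Slc4a4, -0.72 to 0.21 for Kcnj10, -0.82 to 0.21 for Mfge8, -1.15 to 0.70 for Cx3cr1, -0.56 to 2.38 for Slco1a4, -1.51 to 0.69 for Flt1, -0.42 to 0.46 for Cfap54 and -0.93 to 1.16 for Dnah6. Cfap54 was at 0.037 with at most 1% mitochondrial UMIs. Dnah6 was at -0.45 with the block and -0.044 after subtraction. The cause was not tested. The 104114 UMIs of Trained replicate 1 limit what can be seen, and genes with a few UMIs there have wide errors.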

Other observations

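Astrocyte genes were among those with a higher value in low-UMI barcodes of trained mice. All 8 gate genes had a higher value there, with a median log2 change of 0.45, against 0.012 over all 15001 genes tested there. Markers of other cells were higher there too, with medians of 0.41 for dentate granule cells, 0.38 for endothelium and pericytes, 0.25 for oligodendrocyte precursors, 0.23 for CA1 and CA3 cells and 0.22 for oligodendrocytes. The medians were -0.24 for inhibitory neurons, -0.14 for microglia and -0.089 for thalamic and habenular neurons. Gpc5 was at 216 and 160 CPM in low-UMI barcodes of trained mice, against 110 and 107 CPM in untrained mice (log2 change 0.79, SE 0.17, edgeR adjusted p = 0.391). The 19 potassium, water and gap junction genes had a median of 0.22 in low-UMI barcodes.

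Luzp2, a leucine zipper gene of glia, was at 567 and 933 plain CPM in astrocyte nuclei of trained mice, against 953 and 890 CPM in untrained mice. In granule nuclei it was at 208 and 110 CPM in trained mice, against 62.6 and 83.8 CPM in untrained mice. Lmo7, a protein of cell junctions, was at 125 and 116 plain CPM in astrocyte nuclei of trained mice, against 60.1 and 65.7 CPM in untrained mice, and at 193 and 154 CPM in granule nuclei of trained mice, against 216 and 182 CPM in untrained mice. Neither interaction passed the adjusted threshold.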
